A study of Mus musculus with 16 samples.

Results

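The 10 genes described here are 9 genes of the vessel lining (Vwf, Flt1, Kdr, Pecam1, Cdh5, Tek, Tie1, Emcn and Cldn5) together with Procr, the protein C receptor, among 18194 genes with a probe set of their own on the array. They were chosen because their values at day 5 and at day 0 were already known to differ, so those differences are given as a description with no test. Each gene was followed through the probe set that carried its symbol alone and had the highest mean over the 16 arrays. In all 14 probe sets carried 1 of the 10 symbols.

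The arrays measured RNA of whole dorsal skin from 9 females of the inbred mouse strain C57/B6, with no transgene in the labels. Every mouse was biopsied untreated at day 0, when it was 8.5 weeks old. In 7 mice the skin then received a topical treatment on each of 4 days, and a second biopsy was taken when they were killed at day 5. The day-5 groups were tofacitinib (mice 7, 8 and 9), ruxolitinib (mice 4 and 6) and DMSO, the vehicle alone (mice 2 and 3), and the untreated day-0 group held all 9 mice. Tofacitinib and ruxolitinib are small-molecule inhibitors of Janus kinases, enzymes that pass on the signals of many cytokines. Doses are not given in the labels. For the tofacitinib array of mouse 7 the description field names ruxolitinib while the other fields name tofacitinib, and it was grouped as tofacitinib, which limits each tofacitinib value. All day-5 skin differed from day-0 skin in age, in the daily application and in coming from a mouse biopsied before, and these cannot be told apart.

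Blood vessels are lined by endothelial cells. They hold together through junction proteins, grow and survive under vascular endothelial growth factor (VEGF) and angiopoietins, and keep blood from clotting on their surface. The last of these tasks includes the protein C pathway. Thrombin bound to thrombomodulin cuts protein C into its active form, the receptor encoded by Procr presents protein C to that complex, and activated protein C with its cofactor protein S then destroys clotting factors. The receptor is also known from some stem cells and from keratinocytes, the cells of the epidermis.

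The stretches before the annotated starts of 4 of the genes are shown because they set Procr beside genes of the vessel lining. They come from RefSeq (GRCm38.p6), whose promoter table held 7 of the 10 genes, and read 5′ to 3′ on the strand of the gene. Capitals mark the matches to 4 short motifs, which were picked after the sequences had been read. They lie at chr2:155750967-155751124 for Procr on the plus strand, chr3:137340828-137341061 for Emcn on the plus strand, chr4:118489850-118490099 for Tie1 on the minus strand and chr16:18776597-18776846 for Cldn5 on the plus strand.
Procr: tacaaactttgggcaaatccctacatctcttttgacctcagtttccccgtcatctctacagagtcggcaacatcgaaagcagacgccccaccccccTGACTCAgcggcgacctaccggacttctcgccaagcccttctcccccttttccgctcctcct
Emcn: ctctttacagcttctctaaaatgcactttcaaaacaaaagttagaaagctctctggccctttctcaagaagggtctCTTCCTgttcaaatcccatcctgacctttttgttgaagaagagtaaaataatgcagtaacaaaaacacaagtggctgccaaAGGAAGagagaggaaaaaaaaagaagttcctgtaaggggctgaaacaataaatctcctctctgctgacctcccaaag
Tie1: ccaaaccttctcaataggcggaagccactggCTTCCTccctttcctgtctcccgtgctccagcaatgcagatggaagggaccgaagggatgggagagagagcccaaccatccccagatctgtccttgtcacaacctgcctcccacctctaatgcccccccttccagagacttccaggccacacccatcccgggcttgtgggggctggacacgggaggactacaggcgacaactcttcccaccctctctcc
Cldn5: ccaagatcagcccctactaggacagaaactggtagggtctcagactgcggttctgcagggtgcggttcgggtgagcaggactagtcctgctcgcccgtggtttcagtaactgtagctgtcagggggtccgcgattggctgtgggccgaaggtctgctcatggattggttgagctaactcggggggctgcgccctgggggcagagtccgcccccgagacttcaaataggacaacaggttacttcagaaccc
The capitals in Procr spell TGACTCA, a match to the AP-1 motif TGANTCA, which stood in 7.81% of 32851 windows of 300 bases around mouse gene starts and in 1 of the 7 genes found in the table. The capitals in Emcn and Tie1 match the ETS motif AGGAAG on either strand, which stood in 35.4% of all windows and in the windows of Emcn, Flt1 and Tie1. The GATA motif AGATAA stood in 11.2% of windows and, of these genes, in that of Tek. The STAT motif TTCNNNGAA stood in 8.30% of windows and in none of the 7. Both strands were searched, no 2 matches in the printed stretches overlapped, and such matches describe letters, not binding. Cldn5 held no match.

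Values are log2 expression values as deposited, so that 1 unit is a 2-fold difference. They compare a gene between arrays, not one gene with another, because each probe set has its own response. The median over all probe sets was 3.75 to 3.94 by array, whereas 27 control probe sets that match no mouse gene reached at most 2.43 (median 1.70). Values at or under 2.43 occurred at day 0 for Emcn in 7 arrays, for Cdh5 in 2, and for Pecam1 and Cldn5 in 1 each, so the sizes of their differences from day 0 are uncertain. One day-0 array, that of mouse 1, stood apart from the others. The 3′ minus 5′ signal of Gapdh, which rises as RNA degrades, was 0.779 to 0.985 at day 5, and at day 0 it was 1.47 in mouse 1 and 0.825 to 1.06 in the other 8 mice. The day-0 array of mouse 1 was also lowest of all arrays in the mean of the 9 vessel genes (2.45), of 23 further endothelial genes (3.43), of mural genes (5.98), of fibroblast genes (6.57) and of skeletal muscle genes (12.3). It held the lowest day-0 value of each vessel gene but Tie1. The part of RNA quality or tissue depth in the results was not tested. Values without this array are given for the day-0 correlations, the counts of further endothelial genes and the comparisons between day-5 groups. The differences of single genes from day 0 and the counts of the other lists are given with it.

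Procr showed the widest separation of the 10 genes. Its values in tofacitinib skin were 8.37, 7.86 and 8.19, in ruxolitinib skin 8.06 and 7.66, and in DMSO skin 7.62 and 7.61. At day 0 its lowest value was 2.65, its median 3.19 and its highest 4.13. The lowest day-5 array therefore lay 3.48 units above the highest day-0 array, and the 7 day-5 arrays spanned only 0.759 units. The fitted difference from day 0 was 4.91 ± 0.27 in tofacitinib skin, 4.71 ± 0.31 in ruxolitinib skin and 4.42 ± 0.31 in DMSO skin (log2 ± SE; n = 3, 2 and 2 against 9), which are folds of 30.0, 26.1 and 21.4. At day 0 Procr exceeded the filter of 4 in 1 array, though it lay above the highest control value of 2.43 in each. Its day-0 signal was thus weak, and the size of the folds is uncertain. The probe set of Procr is its only one here, and its type can share probes with other transcripts.

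**Figure D1:**
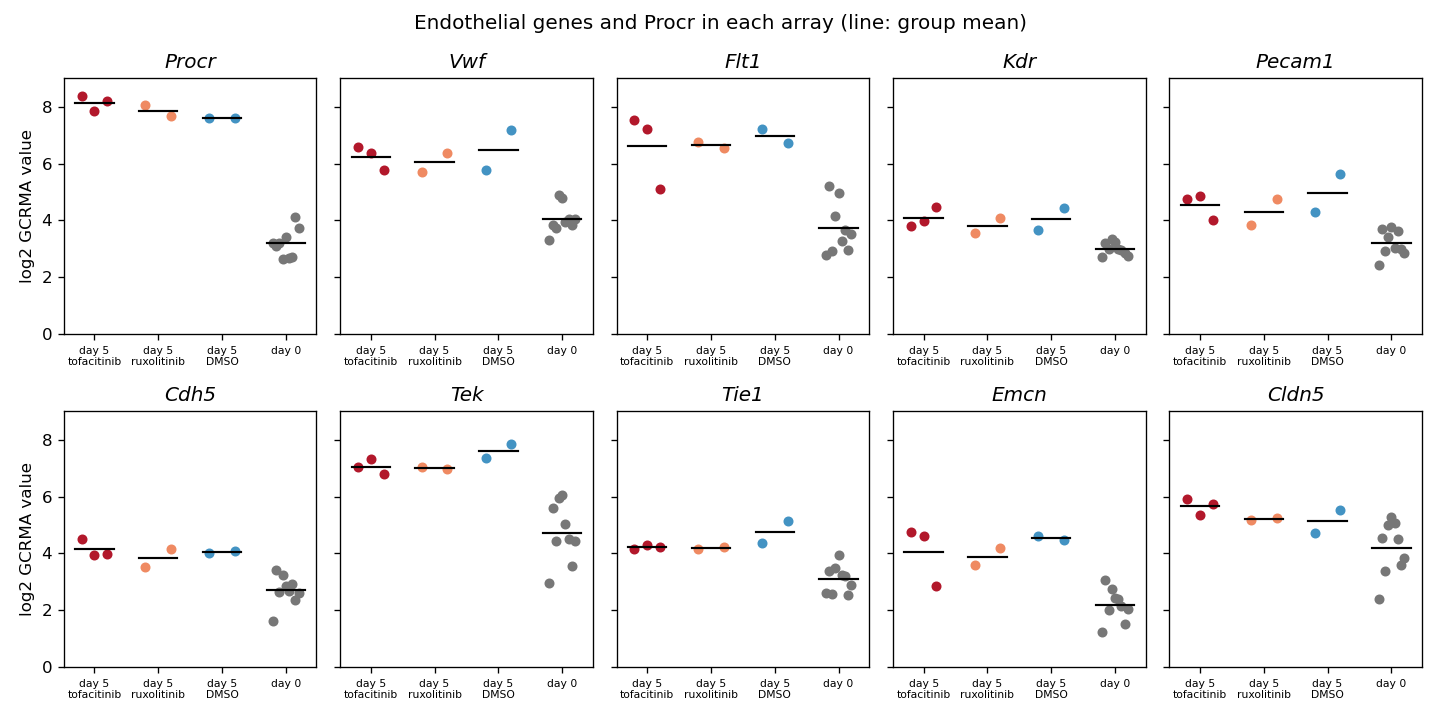
Log2 expression value (vertical axis) of Procr and 9 endothelial genes in each of the 16 arrays, with points for single mice and a line for each group mean; groups run from tofacitinib, ruxolitinib and DMSO at day 5 to untreated skin at day 0. All 7 day-5 points lie above all 9 day-0 points for 7 of the 10 genes, with Procr separated by 3.48 units, and points of both days overlap for Flt1, Emcn and Cldn5.

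Flt1 and Kdr encode VEGF receptors 1 and 2. Flt1, a high-affinity receptor that also traps VEGF, had values of 7.53, 7.23 and 5.11 in tofacitinib skin, 6.75 and 6.54 in ruxolitinib skin and 7.22 and 6.72 in DMSO skin. Its day-0 values ran between 2.77 and 5.22, with a median of 3.52. Only tofacitinib mouse 9 fell within the day-0 range, and without it the fitted tofacitinib difference from day 0 moved to 3.67, against 2.94 with it. Kdr, the main signalling receptor of VEGF in endothelium, had 3.81, 3.98 and 4.49 in tofacitinib skin, 3.55 and 4.07 in ruxolitinib skin and 3.66 and 4.45 in DMSO skin. At day 0 Kdr lay between 2.73 and 3.34 with a median of 2.98, so the groups of the 2 days did not overlap although the differences were small (1.10 ± 0.19, 0.79 ± 0.23 and 1.04 ± 0.23 for tofacitinib, ruxolitinib and DMSO).

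Tek is the receptor of the angiopoietins and Tie1 its partner without a well-defined ligand of its own. Tek had 7.04, 7.31 and 6.78 in tofacitinib skin, 7.03 and 6.98 in ruxolitinib skin and 7.37 and 7.85 in DMSO skin. Day-0 values of Tek were spread widely, between 2.97 and 6.04 with a median of 4.51, and none reached the lowest day-5 value. Tie1 had 4.17, 4.29 and 4.24 in tofacitinib skin, 4.17 and 4.21 in ruxolitinib skin, and 4.38 and 5.13 in DMSO skin. Its day-0 values lay between 2.53 and 3.95, with a median of 3.19. The fitted differences from day 0 in tofacitinib, ruxolitinib and DMSO skin were 2.37 ± 0.51, 2.20 ± 0.61 and 2.86 ± 0.61 for Tek. Those of Tie1 were 1.16 ± 0.26, 1.07 ± 0.31 and 1.67 ± 0.31.

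Pecam1, Cdh5 and Cldn5 encode junction proteins: Pecam1 an adhesion molecule of endothelial contacts, Cdh5 the cadherin of endothelial adherens junctions and Cldn5 a claudin of their tight junctions. Pecam1 had 4.77, 4.85 and 4.01 in tofacitinib skin, 3.85 and 4.77 in ruxolitinib skin and 4.29 and 5.63 in DMSO skin, against 2.43 to 3.77 at day 0 (median 3.04). Cdh5 had 4.50, 3.93 and 3.99 in tofacitinib skin, 3.53 and 4.14 in ruxolitinib skin and 4.02 and 4.09 in DMSO skin, against 1.63 to 3.40 at day 0 (median 2.69). Neither overlapped between the days. Cldn5 had 5.92, 5.36 and 5.74 in tofacitinib skin, 5.18 and 5.24 in ruxolitinib skin and 4.71 and 5.54 in DMSO skin. Because its day-0 values reached as far as 5.28 and as low as 2.39 (median 4.52), only 4 of the 7 day-5 arrays exceeded all of them. Cldn5 thus had the fewest day-5 arrays above its day-0 range of the 10 genes, and its fitted differences from day 0 were 1.52 ± 0.48 in tofacitinib, 0.95 ± 0.56 in ruxolitinib and 0.97 ± 0.56 in DMSO skin.

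Vwf, the glycoprotein that endothelium stores and releases to catch platelets, had 6.58, 6.39 and 5.76 in tofacitinib skin, 5.72 and 6.38 in ruxolitinib skin and 5.77 and 7.20 in DMSO skin. Its day-0 values lay between 3.32 and 4.90 with a median of 3.94, below every day-5 array. Emcn, a mucin of capillary and venous endothelium, had 4.75, 4.60 and 2.85 in tofacitinib skin, 3.59 and 4.19 in ruxolitinib skin and 4.63 and 4.49 in DMSO skin. At day 0 Emcn lay between 1.25 and 3.07 with a median of 2.15. As for Flt1, only tofacitinib mouse 9 overlapped with day 0, and the fitted tofacitinib difference was 2.50 without that array and 1.91 with it. The other 8 genes of that array exceeded every day-0 array.

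All 7 day-5 arrays exceeded all 9 day-0 arrays for 7 of the 10 genes, and the same held for 8.48% of the 12087 genes tested. Since the genes were chosen by this difference, nothing is read from that count. Only Vwf, Flt1, Tek and Cldn5 would have passed the filter on low values (a log2 value above 4 in at least 2 arrays) on the day-0 arrays alone, and the other 6 passed through their day-5 values. In whole skin, more endothelial cells, more RNA per endothelial cell and another share of tissues in the biopsy cannot be told apart. For Procr, a source in other cells cannot be told apart from these either.

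The difference by which the genes were chosen is described here for each animal. Every one of the 10 genes was higher at day 5 than at day 0 in each of the 7 mice with both arrays. How many of all genes did so was not counted, and nothing is read from this. Procr differed by 3.73 to 5.66 units (median 4.51). In 6 of the 7 mice this exceeded the difference of each of the 9 vessel genes, and the exception was tofacitinib mouse 8, in which Flt1 differed by 4.26 and Procr by 3.73. The medians of the 9 vessel genes were 1.56, 1.86 and 1.59 in tofacitinib mice 7, 8 and 9, 0.69 and 1.73 in ruxolitinib mice 4 and 6, and 0.98 and 2.57 in DMSO mice 2 and 3. The differences of Procr were not ordered like these medians. Ruxolitinib mouse 4 had the lowest median of the vessel genes and, at 5.40, the second highest difference of Procr, whereas DMSO mouse 3 had the highest median and a Procr difference of 4.42. Flt1 differed most among the 9 vessel genes in 6 mice and Tek in mouse 9. Cldn5 differed least in mice 2, 4 and 6, by 0.18, 0.18 and 0.16.

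**Figure D2:**
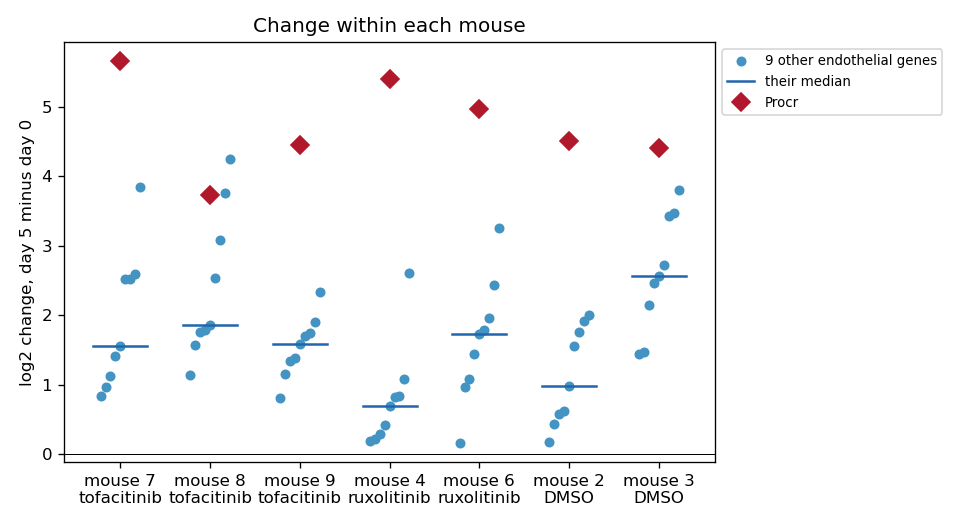
Difference between the day-5 and the day-0 array of the same mouse (vertical axis, log2 units) for Procr (diamonds) and the 9 vessel genes (circles, with their median as a line) in 7 mice. Procr lies above the circles in 6 mice and below the highest circle, Flt1, in mouse 8.

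The question whether an inhibitor altered these genes beyond DMSO was addressed by comparing the groups at day 5, a contrast that did not enter the choice of genes. None of the 10 genes passed the test (limma, Benjamini-Hochberg over all genes, adjusted p under 0.05) in tofacitinib against DMSO, in ruxolitinib against DMSO, in the mean of both against DMSO or in tofacitinib against ruxolitinib, and 0 of 10 had an unadjusted p under 0.05 in each. Over all genes tested, 0.165% passed in tofacitinib against DMSO, 0.521% in ruxolitinib against DMSO, 0.935% in the mean of both against DMSO and 0.0248% in tofacitinib against ruxolitinib. The p-values rest on 2 or 3 mice a group, and a missed threshold does not show equality.

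Procr was nominally higher with either inhibitor. The difference was 0.49 ± 0.37 for tofacitinib against DMSO (95% interval -0.30 to 1.28, adjusted p = 0.813, limma) and 0.29 ± 0.41 for ruxolitinib against DMSO (-0.58 to 1.16, adjusted p = 0.746, limma). The 5 inhibitor arrays ran from 7.66 to 8.37, and the DMSO arrays were at 7.61 and 7.62. How many of all genes were separated in this way was not counted, so nothing is read from that narrow gap. For the mean of both inhibitors against DMSO the interval of the fold ran from 0.789 to 2.17. Tofacitinib against ruxolitinib gave 0.20 ± 0.37 (-0.59 to 0.99, adjusted p = 0.945, limma).

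The 9 vessel genes mostly ran the other way, again without passing the test. All 9 had a negative fitted difference for ruxolitinib against DMSO (median -0.50, range -0.68 to -0.02), although the plain group means of Cldn5 ran the other way (5.21 in ruxolitinib and 5.12 in DMSO skin), and 6 of 9 did for tofacitinib against DMSO (median -0.28, range -0.51 to 0.55), where Kdr, Cdh5 and Cldn5 were the positive ones. The smallest adjusted p among the 10 genes was 0.491 for ruxolitinib and 0.790 for tofacitinib against DMSO (limma), both for Tie1. Tie1 differed by -0.60 (95% interval -1.46 to 0.26) for ruxolitinib and by -0.51 (-1.30 to 0.28) for tofacitinib against DMSO. For tofacitinib against ruxolitinib the fitted differences of the 9 vessel genes lay between 0.01 and 0.57, and the plain means of Flt1, with the fitted value nearest 0, were 6.62 in tofacitinib and 6.65 in ruxolitinib skin. These signs are not independent of one another, since the genes varied together between untreated mice and both comparisons with DMSO share the 2 DMSO arrays. The mean of the 9 vessel genes was 5.12 in DMSO mouse 2 and 5.68 in DMSO mouse 3, against 4.77 to 5.45 in inhibitor arrays. Under some other settings of the fit the ruxolitinib difference from DMSO was positive for Vwf, Flt1, Kdr, Pecam1, Cdh5 or Cldn5. The widest interval was that of Flt1 for ruxolitinib against DMSO, -2.04 to 1.46, so that a 2-fold difference either way was not detectable for this gene.

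**Figure D3:**
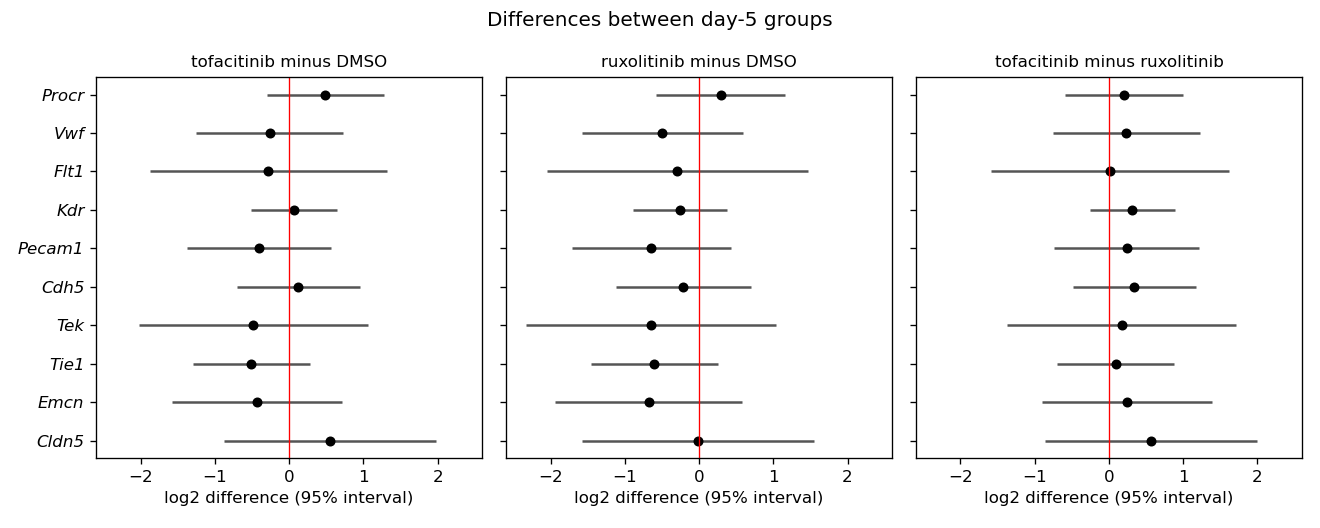
Fitted log2 differences (horizontal axis) between day-5 groups for each of the 10 genes, as points with 95% intervals; the panels are tofacitinib minus DMSO, ruxolitinib minus DMSO and tofacitinib minus ruxolitinib, and the vertical line marks 0. Each interval includes 0, with Procr at 0.49, 0.29 and 0.20.

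Untreated skin was used to ask whether Procr follows the vessel genes between animals, over the 9 day-0 arrays and apart from the difference between days. The vessel genes varied together. Over their 36 pairs Pearson's r lay between 0.59 and 0.94 (median 0.81) and Spearman's rho between 0.63 and 0.95. In 32 pairs the adjusted p was under 0.05 (two-sided exact permutation test over 9 mice, Benjamini-Hochberg over 36 pairs, adjusted p 0.00605 to 0.0949), and in 31 by Spearman's rho (adjusted p 0.00675 to 0.0760). Leaving out the 2 arrays farthest from the median of the second gene gave r of 0.30 to 0.93, and leaving out mouse 1 gave 0.38 to 0.93. The highest r was that of Cdh5 with Emcn. Emcn was at or under the highest control value in 7 of these arrays and Cdh5 in 2, so their r values rest in part on signal at background. Kdr, Pecam1 and Tie1, like Emcn and Cdh5, exceeded the filter of 4 in no day-0 array, so their r values rest on weak signal. How many pairs among all genes would pass was not counted. The counts of pairs are therefore not read as particular to vessel genes.

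Procr gave no positive value. Its r with the 9 vessel genes was negative for each, between -0.49 (Emcn, at background in 7 arrays) and -0.17 (Flt1), and its rho lay between -0.62 and -0.27. None passed the exact permutation test (two-sided, n = 9, adjusted p 0.476 to 0.664 over 9 pairs for Pearson's r, at the smallest 0.400 for Spearman's rho). Without the 2 arrays farthest from the median of the vessel gene r lay between -0.77 and -0.04, and without mouse 1 between -0.63 and -0.19. Procr itself was low in untreated skin, above the filter of 4 in 1 of the 9 arrays, so these values rest on weak signal. Procr was highest at day 0 in mice 8 and 9, at 4.13 and 3.74. The means of the 9 vessel genes in these mice were 2.91 and 3.22, against 2.45 to 4.15 over all 9 mice. In mouse 4, where Procr was lowest (2.65), the mean of the vessel genes was 4.03, the second highest.

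**Figure D4:**
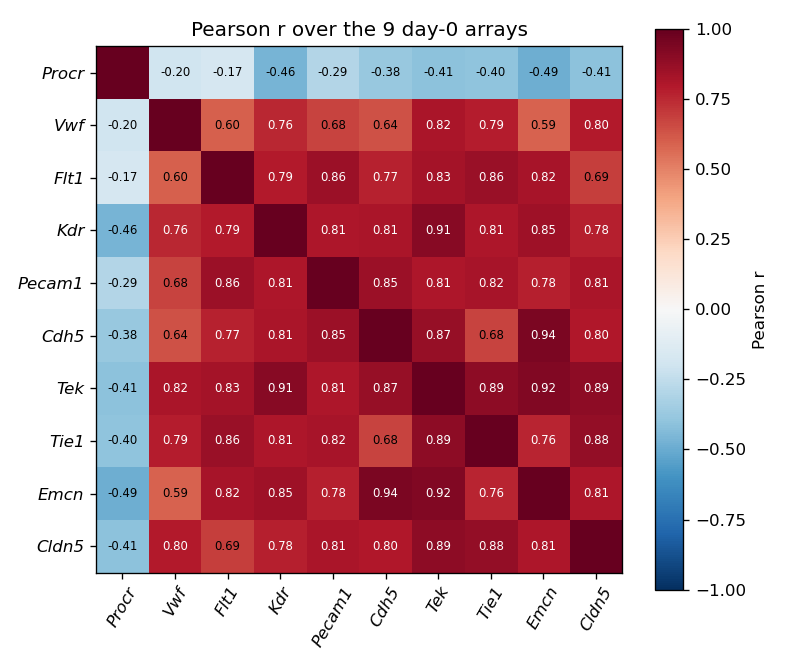
Pearson's r between each pair of the 10 genes over the 9 day-0 arrays, 1 per mouse, with red for positive and blue for negative values on a colour scale from -1 to 1. The 36 pairs of vessel genes lie between 0.59 and 0.94, and the 9 pairs with Procr between -0.49 and -0.17.

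Values of other tissue compartments varied with the vessel genes between untreated mice. The mean of the 9 vessel genes was 2.45, 4.00, 3.06, 4.03, 4.15, 3.52, 3.52, 2.91 and 3.22 in mice 1 to 9. In the same order the mean of the 11 mural genes (pericyte and smooth muscle markers) was 5.98, 8.59, 7.38, 8.83, 8.61, 8.12, 8.45, 7.24 and 7.60. The means of both were low in mice 1, 3, 8 and 9 and high in mice 2, 4 and 5. The mean of the 15 skeletal muscle genes was 12.3, 13.0, 12.5, 13.0, 13.0, 13.1, 12.9, 12.4 and 12.8, with mice 1, 8 and 3 lowest, and that of the 9 tested basal keratinocyte genes lay between 11.8 and 12.3, with mice 3, 9 and 8 highest. The part of biopsy depth or composition in the joint variation was not tested. Mouse 8, highest in Procr, was also highest at day 0 in the mean of 10 wound keratinocyte genes (6.59, against 4.93 to 6.19 in the other 8). It was highest too in the means of the 3 tested platelet genes (5.74) and of the tested protein C and clotting genes (8.45). In the wound keratinocyte, platelet and protein C lists, mouse 9, second highest in Procr, had 6.19, 5.35 and 8.28. Mouse 7, with Procr at 2.71, had 6.08, 5.68 and 8.37 in the same order. A relation of Procr to these lists was not tested.

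**Figure D5:**
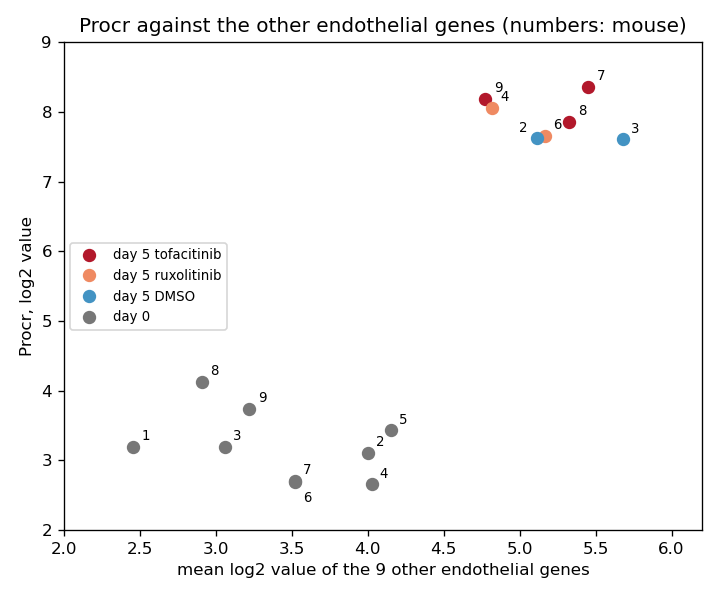
Procr (vertical axis, log2 value) against the mean log2 value of the 9 vessel genes (horizontal axis) in each array, coloured by group and numbered by mouse. Day-5 arrays lie at 4.77 to 5.68 for the vessel mean and 7.61 to 8.37 for Procr, and day-0 arrays at 2.45 to 4.15 and 2.65 to 4.13.

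Over all 16 arrays, with both days pooled, the tested genes outside the set whose pattern was most like Procr were Bzw1 (Pearson's r 0.974), Fbxo33 (0.970), Lrrn4cl (0.968), Atp6ap2 (0.966) and Noct (0.958). The vessel gene most like Procr was Vwf with r = 0.886, at rank 179 of all tested genes, and the least like it was Cldn5 with r = 0.602, at rank 2739. The genes most like the mean of the 9 vessel genes were Ptprb (0.984), Jam2 (0.983), Arhgap31 (0.977), Gpihbp1 (0.975) and Prelp (0.972), while Procr stood at rank 1018 (0.847). Ptprb and Gpihbp1, a receptor phosphatase and a lipoprotein lipase carrier of endothelium, were also on the list of further endothelial genes. These values are descriptions, as arrays of the same day and mouse share their source.

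A wider list of 25 endothelial genes, without the 10, was higher at day 5 in part. This list and those below were chosen with earlier results of these data known, so their tests against day 0 serve as description. Of its 23 tested genes, 19 were higher in tofacitinib skin, 7 in ruxolitinib skin and 16 in DMSO skin than at day 0, and none was lower (limma, adjusted p under 0.05). Over all genes, 22.7% were higher and 27.4% lower in tofacitinib skin, 12.5% and 21.4% in ruxolitinib skin, and 22.2% and 28.9% in DMSO skin. The median differences of the list were 1.45, 1.13 and 1.70 for tofacitinib, ruxolitinib and DMSO, against -0.02, -0.03 and -0.05 over all genes. Restricted to the 19 genes that passed the filter on day-0 arrays alone, 15, 5 and 13 were higher. Ptprb was higher by 3.09 ± 0.58, 2.90 ± 0.68 and 3.29 ± 0.68 (adjusted p = 0.000677, 0.00490 and 0.00134 in limma), and Gpihbp1 by 2.90, 2.66 and 2.81. Sox18, a transcription factor of endothelium, was higher by 2.45, 1.64 and 2.43, Nos3, the endothelial nitric oxide synthase, by 1.34, 0.84 and 1.70, and Ramp2, the partner of the adrenomedullin receptor, by 2.25, 2.16 and 1.95, each past the test in all 3 groups. The day-0 mean of Sox18, 2.35, lay under the highest control value of 2.43, so the size of its difference is uncertain. Sox18 and Nos3 passed the filter only through their day-5 values, so nothing is read from their tests. The count in ruxolitinib skin rested on both of its arrays, with 3 genes higher without mouse 4 and 1 without mouse 6, and that in DMSO skin was 6 without mouse 3. Without the day-0 array of mouse 1 the counts were 19, 9 and 17.

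Of 22 listed genes of the protein C pathway and of clotting 10 were tested, with 3 higher and 3 lower in tofacitinib skin, 3 and 3 in ruxolitinib skin and 4 and 3 in DMSO skin than at day 0. The shares over all genes were 22.7% and 27.4%, 12.5% and 21.4%, and 22.2% and 28.9%, so that these counts are not read as a result about the list. Of the 8 that passed the filter on day-0 arrays alone, 2 were higher and 3 lower in each group. Thbd, which encodes thrombomodulin, was higher by 0.82 ± 0.20, 1.03 ± 0.23 and 1.16 ± 0.23 in tofacitinib, ruxolitinib and DMSO skin (adjusted p = 0.00370, 0.00385 and 0.00110 in limma). Tfpi, the inhibitor of the tissue factor pathway, was higher by 1.07, 1.27 and 0.79, also past the test in each group. Plaur, the urokinase receptor, passed in tofacitinib (0.89) and DMSO skin (1.05), and its value in ruxolitinib skin was 0.43. As Plaur passed the filter only through its day-5 values, nothing is read from its test. Adam17, a protease known to shed the protein C receptor from cells, was lower in all groups, with differences of -0.69, -0.51 and -0.71. Pros1, encoding protein S, passed in tofacitinib (-0.64) and DMSO skin (-0.81) and had -0.48 in ruxolitinib skin (adjusted p = 0.055, limma). F2r, the thrombin receptor that activated protein C can also cleave, passed in ruxolitinib skin alone (-0.74), with -0.44 in tofacitinib and -0.27 in DMSO skin, and a difference between the groups was not found (none of the listed genes passed between day-5 groups). F3, tissue factor, passed in none (0.07, -0.02 and -0.51). Proc itself, which is made mainly by the liver, did not exceed 2.37 in any array and was not tested.

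Among the ligands of the vessel receptors, Vegfa was higher by 1.49 ± 0.30 in tofacitinib skin, 1.25 ± 0.35 in ruxolitinib skin and 2.29 ± 0.35 in DMSO skin (adjusted p = 0.00111, 0.0137 and 0.000146 in limma). Angpt1, the activating ligand of Tek, passed in tofacitinib (1.67) and DMSO skin (1.63) and had 1.26 in ruxolitinib skin (adjusted p = 0.114, limma). Pgf, a ligand of Flt1, passed in none (0.57, -0.14 and 0.49), and Angpt2 stayed at or under 3.86 and was not tested. Over the list of 18 VEGF, angiopoietin and Notch genes, of which 15 were tested, 8 were higher and 3 lower in tofacitinib skin, 4 and 2 in ruxolitinib skin, and 7 and 3 in DMSO skin. Of the 12 that passed the filter on day-0 arrays alone, 6, 3 and 5 were higher and 3, 2 and 3 lower, beside 22.7%, 12.5% and 22.2% higher and 27.4%, 21.4% and 28.9% lower over all genes. Hey2, a Notch target, was higher by 1.87, 2.01 and 1.77, and Epas1, a hypoxia-inducible factor, by 0.99, 0.87 and 1.09, each past the test in all groups. Hey2 passed the filter only through its day-5 values, so nothing is read from its test. Notch1 (-1.28, -1.36 and -1.66) and Vegfd (-0.75, -0.67 and -0.60) were lower in all groups.

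Markers of cells next to the vessels were set beside these values, and their counts stand beside 22.7%, 12.5% and 22.2% of all genes higher in tofacitinib, ruxolitinib and DMSO skin. The shares of all genes lower were 27.4%, 21.4% and 28.9% in the same order. Of 11 mural genes 4 were higher and 1 lower in tofacitinib skin, 1 and 1 in ruxolitinib skin, and 4 and 1 in DMSO skin. Tagln, a smooth muscle protein, was higher by 2.45, 2.46 and 3.05, and Notch3, a receptor of mural cells, was lower (-0.96, -0.80 and -1.02). Of the 4 lymphatic genes tested among 7 listed, 3, 2 and 3 were higher and none lower, but only 2 passed the filter on day-0 arrays alone, of which 1 was higher in each group. Lyve1 was higher by 1.10, 1.78 and 0.81 and Reln by 1.90, 1.66 and 2.56. Lyve1 passed the filter only through its day-5 values, so nothing is read from its test. Of 6 activation genes tested among 9, 4, 2 and 4 were higher and 1 was lower in each group. Of the 3 that passed the filter on day-0 arrays alone, 1, 0 and 1 were higher and 1 was lower in each. Vcam1, an adhesion molecule for leukocytes, was higher by 1.70, 1.63 and 2.19, and Icam1, another, was lower (-1.19, -1.22 and -1.23). Vcam1, like Lyve1, passed the filter only through its day-5 values. Of 9 platelet genes 3 were tested, 2 of them passing the filter on day-0 arrays alone. Pf4 was higher in each group (1.67, 2.19 and 1.98), Itga2b was higher in tofacitinib (0.85) and DMSO skin (0.66), and Gp1bb was lower in ruxolitinib (-1.18) and DMSO skin (-1.30). Itga2b was the platelet gene that passed the filter only through its day-5 values.

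Other tissue compartments of skin also differed between the days, with means whose arrays did not overlap between the days for skeletal muscle (13.2 to 13.4 at day 5, 12.3 to 13.1 at day 0), fibroblast (9.04 to 9.80, 6.57 to 8.39), basal keratinocyte (10.8 to 11.3, 11.8 to 12.3) and wound keratinocyte genes (7.01 to 7.81, 4.93 to 6.59). Of 15 skeletal muscle genes 11, 2 and 9 were higher in tofacitinib, ruxolitinib and DMSO skin. The shares over all genes were 22.7%, 12.5% and 22.2% higher and 27.4%, 21.4% and 28.9% lower. The skeletal muscle count in ruxolitinib skin lay near that share. Of 9 fibroblast genes tested 6, 6 and 5 were higher, of 10 wound keratinocyte genes 6, 3 and 5 were higher and 1 was lower in each group (4, 3 and 4 higher of the 7 that passed the filter on day-0 arrays alone), and of 7 macrophage genes tested 2, 2 and 3 were higher. All 9 basal keratinocyte genes tested were lower in each group. With so few genes tested, the macrophage counts are not read as a result about that list. The part of these shifts in the values of the vessel genes and of Procr was not tested.

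Probe sets beyond the chosen ones bore on Flt1 and Cdh5 alone. Of the 3 other probe sets of Flt1, 2 gave differences in group means from day 0 of 3.07, 2.84 and 3.47 and of 1.96, 1.63 and 2.19 for tofacitinib, ruxolitinib and DMSO. The third gave 0.39, 0.44 and 0.17 and did not exceed 2.74 in any array. The other probe set of Cdh5 lay below the highest control value in every array, at 2.04 or less, and bears on no comparison.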

How the data were processed

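Whole-skin RNA was extracted with a column kit, amplified as cDNA and labelled with biotin for Affymetrix mouse arrays, per the labels' protocols. The authors deposited a log2 value for each probe set. The submitters' processing notes name GCRMA, a method that corrects background, normalizes and summarizes probes. Its version and whether the arrays went through it jointly were not given in the sources used here. For arrays the number of mice limits the precision. The titles write C57/B7 and other fields C57/B6, which was used.

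Probe sets with exactly 1 gene symbol were used (34958 of 45101, with 932 having several symbols and 9211 not listed in the platform's gene table). Probe sets above 4 on the log2 scale in 2 or more arrays were kept, and each gene was read from its kept probe set of highest mean (12087 genes). The fit used limma 3.58.1 (R 4.3.3), with a mean for each of the 4 groups, the mouse as a random block (duplicateCorrelation, 0.0982) and Benjamini-Hochberg adjustment over all genes of a comparison, at an adjusted p under 0.05. SEs and 95% intervals come from this fit, with 12 residual and 2.86 prior degrees of freedom, and folds are powers of 2 of its differences. Correlations at day 0 were tested by exact permutation. The script was tested on simulated data.

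The 10 genes, the 12 other lists and the motifs were chosen with earlier results of these data known. Besides the 10 genes, the text names Thbd, Proc, F2r, F3, Vegfa, Pgf, Angpt1 and Angpt2, up to 5 tested genes with the smallest p from each list, and the 5 genes most like Procr and like the mean of the vessel genes. Both biopsies of a mouse share its number in the labels. As a check, the deviations of its 2 arrays from their group means correlated at -0.183 to 0.178, over 0.1 in 2 of 7 mice. The day-0 array most like a day-5 array was that of the same mouse in 1 of 7 mice. The differences within animals thus rest on the numbers in the labels. Alternatives covered the filter, the choice of probe set, scaling, the block, the moderation and leaving out arrays.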

Additional observations from a re-analysis of the deposited data

Results flagged for a closer look

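Of 69 genes examined for a day-0 array far from the other 8, 4 stood out, and chance alone flags about 1 in 20. None was among the 10 genes. The gap of the extreme array to its neighbour as a share of the whole range was 0.613 for Il6st, a cytokine receptor subunit (9.78 in mouse 1, next 10.5), 0.616 for Pdpn, a lymphatic and fibroblast marker (7.66 in mouse 1, next 8.87), and 0.496 for Tagln, a smooth muscle marker (3.23 in mouse 1, next 5.00). For Fosl1, an AP-1 subunit, it was 0.533, with the highest value in mouse 7 (8.47, next 5.32).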

How the results depend on the processing

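None of the 10 genes passed between day-5 groups under any of 15 other settings or without the day-0 array of mouse 1, a setting chosen after seeing the data. With a filter at 6 this covers Vwf, Flt1, Tek and Procr, since the other 6 genes were not tested there. In 616 such values 47 had another sign than in the main fit, all without passing; with the mouse as a fixed replicate block Procr was -0.57 for tofacitinib against ruxolitinib. Against day 0 none of 462 values changed sign, and 11 moved by more than the spread between replicates. Genes called over the whole array changed more. With the fixed replicate block the counts were 1324 (main 4104) for ruxolitinib and 3701 (main 6178) for DMSO against day 0, 0 for each of the 4 comparisons between day-5 groups, and 2 (main 7) and 10 (main 16) for further endothelial genes higher in ruxolitinib and DMSO skin. This block leaves 4 residual degrees of freedom. For tofacitinib against DMSO (main 20) the count was 11 with a filter at 6, 11 without a filter, 12 after averaging a gene's probe sets, 32 with trend and robust moderation and 32 without mouse 1. For ruxolitinib against DMSO (main 63) it was 110 after averaging a gene's probe sets and 105 without mouse 1, for the mean of both inhibitors (main 113) 71 without a filter, and for tofacitinib against ruxolitinib (main 3) 5 after averaging a gene's probe sets. Further endothelial genes higher numbered 10 in tofacitinib (main 19) and 9 in DMSO skin (main 16) with a filter at 6, which tests fewer genes, and in ruxolitinib skin 12 after averaging a gene's probe sets and 11 with median centring or quantile normalization. Leaving out single day-5 arrays gave 3965 to 6344 genes for tofacitinib, 2007 to 4455 for ruxolitinib and 3469 to 6477 for DMSO against day 0. Between day-5 groups it gave 0 to 121 for tofacitinib against DMSO, 1 to 259 for ruxolitinib against DMSO, 0 to 373 for the mean of both and 1 to 9 for tofacitinib against ruxolitinib, with 121 and 373 reached without tofacitinib mouse 9 and 259 without tofacitinib mouse 7. For further endothelial genes higher it gave 13 to 19 in tofacitinib, 1 to 9 in ruxolitinib and 6 to 16 in DMSO skin. Where a group kept 1 array, that array was assumed to vary like the other groups. Apart from arrays left out by construction, the cause of these changes was not tested. Signal over background limits Emcn, Cdh5, Pecam1 and Cldn5, which reached the level of control probe sets at day 0.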
